A study of Homo sapiens with 3 samples.

Results

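The insulin-like growth factor (IGF) axis was followed in A375 melanoma cells after adipocyte secretome exposure through 10 genes taken by symbol from the 58037 genes of the count table. They were the binding proteins IGFBP2, IGFBP3, IGFBP4, IGFBP5, IGFBP6 and IGFBP7, the receptors IGF1R, IGF2R and INSR, and the receptor substrate IRS1. A375, an established human melanoma line, had been incubated for 24 h in serum-free DMEM (control), in young adipocyte secretome (YA-A375) or in old adipocyte secretome (OA-A375). The secretomes were serum-free medium conditioned by adipocytes. These had been differentiated in culture from donor preadipocytes with insulin, dexamethasone, indomethacin and IBMX. The number of donors behind each secretome was not given in the sources used here. In the study's donor list, the younger donors were mostly female, with chest tissue bought from a supplier. The older donors were all male and mostly from a biobank, with several body sites. Between YA and OA, donor age therefore cannot be told apart from sex, body site or source. Each group had 1 poly(A) RNA library, so no difference below has a replicate check, no test was possible, and every interval covers counting error only. The control medium was not conditioned by cells, and both comparisons with control share that 1 library. In bulk RNA, fewer cells with a transcript and less of it per cell cannot be told apart.

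IGF ligands bind a pair of related receptor tyrosine kinases, the IGF receptor and the insulin receptor, which phosphorylate IRS docking proteins and so engage PI3K signaling. Secreted IGFBPs hold IGFs in the extracellular space and can either withhold the ligand or deliver it, and proteases such as PAPPA free the ligand by cleaving them. IGF2R, also a sorting receptor for lysosomal enzymes, removes IGF2 from the cell surface without signaling. In melanoma the axis is known mainly as a growth and survival input.

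Total counts ranged from 18089008 in OA to 21448195 in control. The line was checked against 10 melanoma and melanocyte lineage markers: CSPG4 had 16208 to 29002 counts, MITF 764 to 1221 and S100B 550 to 843, whereas TYR and DCT had at most 2 counts and PMEL at most 10. SOX10 was listed at 0 in all 3 libraries. In GENCODE 29, 2.4% of the exon bases of this gene overlap POLR2F on the opposite strand. The authors' handling of overlapping genes is not given in the sources used here, and whether the 0 comes from it was not tested. RNA of the secretome donors was looked for with 10 adipocyte and 11 fibroblast markers. Counts were divided by the size factor of each library to give normalised counts, and counts not called normalised are as deposited. Their sum over the adipocyte markers was 688 for control, 1227 for YA and 517 for OA, and over the fibroblast markers it was 852, 1191 and 1655. Of the adipocyte markers, 5 passed the filter, a mean normalised count of 20 over the 3 libraries. All 5 were 1.2-fold or more above control after YA and 3 were after OA, as were 4 and 3 of 6 fibroblast markers. Of all genes past the filter, 17.4% were after YA and 21.1% after OA. CIDEC and DCN were under 20 in control and passed through the other libraries, so their being higher was partly set by the filter. PLIN1, at 2, 5 and 2 counts for control, YA and OA, and FABP4, at 16, 15 and 2, did not pass. The fibroblast markers, and the adipocyte markers after OA, did not share a direction. COL6A3, a collagen chain of fibroblasts, had 145, 302 and 886 counts for control, YA and OA, DCN (decorin) had 13, 138 and 24, COL1A1 had 75, 117 and 84, and PDGFRA had 76, 20 and 51. Of the adipocyte markers, CIDEC, a lipid droplet protein, had 6, 31 and 36 counts and LPL, lipoprotein lipase, had 353, 583 and 30. At 3 counts or fewer in every library were 3 of the 10 adipocyte markers (ADIPOQ, LEP and CIDEA) and 2 of the 11 fibroblast markers (COL1A2 and COL3A1). The part of such RNA in the values below was not tested.

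Promoter sequences are shown for 4 genes, the 3 with the widest differences between libraries (IGFBP5, IRS1 and IGFBP3) and IGFBP4, which was higher after both secretomes. They are the 250 bases before the RefSeq start site on GRCh38.p14, read 5′ to 3′ on the strand of the gene, and 9 of the 10 genes, all but IGFBP7, had an entry. Capitals mark matches, on either strand, to the letters TATAAA of the core promoter box, the CCAAT box, the GC box as GGGCGG, AP-1 as TGACTCA, CRE as TGACGTCA, FOXO as TGTTTAC, the E-box as CACGTG, AP-2 as GCCNNNGGC, TEAD as CATTCC, or the NF-kB motif.
IGFBP5, minus strand, chr2:216695550-216695799: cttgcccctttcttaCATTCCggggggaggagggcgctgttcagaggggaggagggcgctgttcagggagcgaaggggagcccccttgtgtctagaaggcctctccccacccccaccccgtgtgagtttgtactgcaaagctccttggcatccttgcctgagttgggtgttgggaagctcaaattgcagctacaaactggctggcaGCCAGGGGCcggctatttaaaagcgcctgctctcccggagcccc
IRS1, minus strand, chr2:226799821-226800070: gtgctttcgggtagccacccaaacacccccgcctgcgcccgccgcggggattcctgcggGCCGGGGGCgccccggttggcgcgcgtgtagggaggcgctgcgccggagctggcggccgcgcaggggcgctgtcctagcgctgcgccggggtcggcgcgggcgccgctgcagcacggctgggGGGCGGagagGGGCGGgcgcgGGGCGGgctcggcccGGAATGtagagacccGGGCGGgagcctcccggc
IGFBP3, minus strand, chr7:45921273-45921522: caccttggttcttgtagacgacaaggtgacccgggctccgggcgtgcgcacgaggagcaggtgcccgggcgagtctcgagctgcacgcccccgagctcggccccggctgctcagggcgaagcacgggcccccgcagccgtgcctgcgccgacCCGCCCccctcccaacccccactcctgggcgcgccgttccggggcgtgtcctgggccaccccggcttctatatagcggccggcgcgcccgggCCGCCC
IGFBP4, plus strand, chr17:40443200-40443449: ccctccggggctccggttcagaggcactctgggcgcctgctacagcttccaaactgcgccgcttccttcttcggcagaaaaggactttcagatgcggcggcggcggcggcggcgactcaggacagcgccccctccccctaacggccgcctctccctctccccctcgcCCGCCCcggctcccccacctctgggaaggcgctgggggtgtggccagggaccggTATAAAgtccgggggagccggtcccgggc
The IGFBP5 and IRS1 windows, from the pair of genes that were lower in YA and higher in OA, differed in composition, with 61.2% and 80.8% G or C beside a median of 58% over 35116 windows of this length. TEAD letters were found in 3 of the 11 windows of these genes, those of IGFBP5, IRS1 and IGFBP6, and in 11.9% of all windows. AP-2 letters were found in 5, those of IGFBP5, IRS1, IGFBP6, IGF1R and INSR, and in 19.8% of all windows. The pair thus shared both with IGFBP6, which was lower than control after both secretomes. The TATAAA letters were present in the IGFBP4 window alone among the 11 windows of these genes, with their first base 29 before the start, and in 10.7% of all windows. GC box letters occurred in 9 of the 11 windows, including those of IRS1, IGFBP3 and IGFBP4, and in 42.6% of all windows. The IGF2R window held the E-box letters at 3 places, which 6.34% of all windows hold at least once, FOXO letters were found in the IGFBP6 window (2.98% of all windows) and CCAAT letters in 1 of the 3 windows of IGFBP2 (32.01%). No AP-1, CRE or NF-kB letters were found in the windows of these genes, beside 4.203%, 1.65% and 0.527% of all windows. These matches describe letters in a short window and do not mark bound sites.

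IGFBP5 (ENSG00000115461.4), a binding protein that associates with extracellular matrix, had the widest range of the 10 genes. Control, YA and OA held 702, 182 and 2137 normalised counts. YA therefore held the lowest and OA the highest level, on either side of control. The fold was 0.261 in YA against control (95% counting interval 0.221 to 0.305), 3.04 in OA against control (2.80 to 3.32) and 0.0858 in YA against OA (0.0732 to 0.0990). IGFBP5 lies on GRCh38 chromosome 2 at 216672105 to 216695525, and 4.63% of its exon bases overlap an antisense gene in GENCODE 29.

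IGFBP3 (ENSG00000146674.14), the main IGF carrier of serum, was the other binding protein more than 2-fold lower after YA. The gene lies on chromosome 7 at 45912245 to 45921874, and control, YA and OA held 3308, 1163 and 2518 normalised counts. Control was highest and YA lowest, with OA between them. The fold was 0.352 after YA (0.329 to 0.375) and 0.761 after OA (0.721 to 0.803) against control. YA was at 0.462 of OA (0.431 to 0.496).

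IGFBP4 (ENSG00000141753.6), which restrains IGF signaling until PAPPA cleaves it, was the only gene of the 10 that lay 1.2-fold or more above control after both secretomes. It lies on chromosome 17 at 40443461 to 40457731, and the same libraries held 5336, 9348 and 6963 normalised counts. The fold was 1.75 after YA (1.70 to 1.81) and 1.30 after OA (1.26 to 1.35), and YA was 1.34-fold of OA (1.30 to 1.39). Its order over the libraries was thus the reverse of that of IGFBP3, with YA highest and control lowest.

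IGFBP7 (ENSG00000163453.11), a family member with low affinity for IGFs, stood apart in OA alone. It lies on chromosome 4 at 57030773 to 57110385. Control, YA and OA held 169, 161 and 428 normalised counts, giving a fold of 2.53 in OA (2.12 to 3.05) and 0.953 in YA (0.768 to 1.18), the latter within counting error. In GENCODE 29, 18.9% of its exon bases overlap POLR2B or IGFBP7-AS1 on the opposite strand, and IGFBP7-AS1 itself had 0, 0 and 1 counts in the same order.

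IGFBP2 (ENSG00000115457.9), on chromosome 2 at 216632828 to 216664436, and IGFBP6 (ENSG00000167779.7), on chromosome 12 at 53097436 to 53102345, varied least among the binding proteins. IGFBP2, which can also engage integrins, had 1592, 1584 and 1059.6 normalised counts for control, YA and OA, so that control and YA were level and OA was lower, at 0.666 of control (0.614 to 0.721). IGFBP6, which prefers IGF2, had 2979, 2381 and 2407. Its fold was 0.799 after YA (0.758 to 0.843) and 0.808 after OA (0.765 to 0.854), and both intervals crossed the 1.2-fold line. The counting interval of YA over OA held 1 for IGFBP6 (0.989, 0.934 to 1.05).

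**Figure D1:**
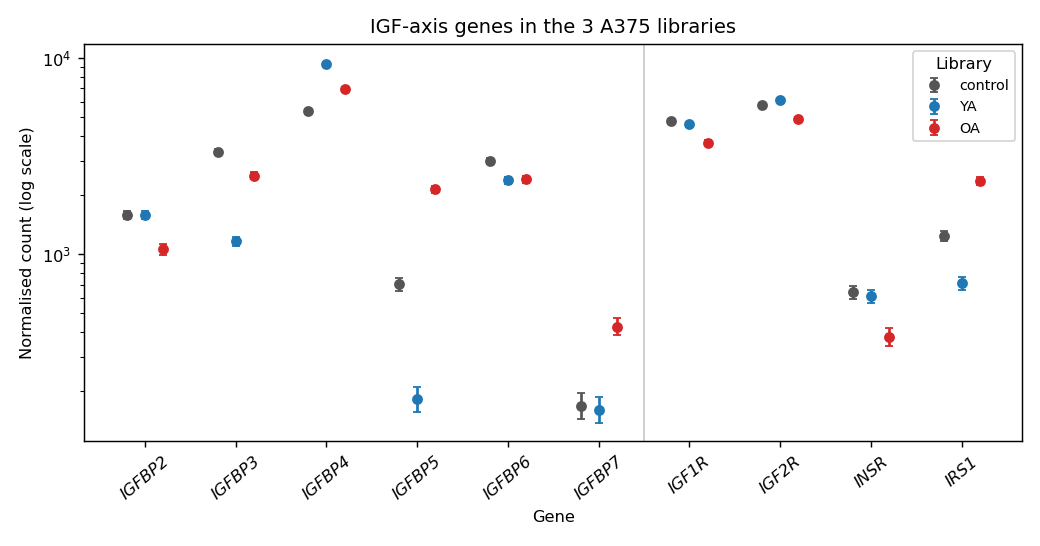
Normalised counts (y axis, log scale) of the 10 genes (x axis) in the control, YA and OA libraries, 1 library each; bars are 95% Poisson counting intervals. IGFBP5 spans 182 in YA to 2137 in OA, and IRS1 shows the same order of libraries over a narrower range, from 709 to 2362.

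The receptors stayed within 1.2-fold of control after YA, and IGF1R and INSR were lower after OA. By GENCODE 29, IGF1R lies on chromosome 15 at 98648539 to 98964530, IGF2R on chromosome 6 at 159969099 to 160113507 and INSR on chromosome 19 at 7112255 to 7294034. IGF1R (ENSG00000140443.13), the signaling receptor for IGFs, had 4752, 4595 and 3706 normalised counts for control, YA and OA. Its fold was 0.967 after YA (0.929 to 1.01), and it was lower after OA (0.780, 0.746 to 0.815). INSR (ENSG00000171105.13), the insulin receptor, had 641, 611 and 379, with YA at 0.953 of control (0.854 to 1.06) and OA at 0.593 (0.518 to 0.676). IGF2R (ENSG00000197081.12), the clearance receptor, had 5755, 6119 and 4859, and its folds of 1.06 after YA (1.03 to 1.10) and 0.844 after OA (0.812 to 0.878) stayed within 1.2-fold. OA was therefore the lowest library for all 3 receptors, and between the secretomes YA was 1.24-fold of OA for IGF1R (1.19 to 1.30), 1.26-fold for IGF2R (1.21 to 1.31) and 1.61-fold for INSR (1.41 to 1.84).

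IRS1 (ENSG00000169047.5), the docking protein next to the receptors, lies on chromosome 2 at 226731317 to 226799759 and had 1240.06, 709 and 2362 normalised counts for control, YA and OA. It had the same order of libraries as IGFBP5, with folds of 0.572 in YA (0.522 to 0.626), 1.90 in OA (1.78 to 2.04) and 0.300 in YA against OA (0.276 to 0.326). IRS2, its close relative, had 5428, 6056 and 2436 counts for control, YA and OA and the opposite order, at 1.12-fold after YA (1.08 to 1.16) and 0.535 after OA (0.509 to 0.561). TPM divides counts by the length of all annotated exons of a gene, whichever transcript is in use, and brings each library to 1 total. On that scale the level of IRS2 was 5.04 times that of IRS1 in control, 9.88 times in YA and 1.42 times in OA. IRS4, another substrate, had 90, 34 and 1 counts, which gives a fold of 0.386 after YA (0.248 to 0.568). OA held 1 count, so only the bounds of its ratio to control are given, 0.000331 to 0.0756.

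**Figure D2:**
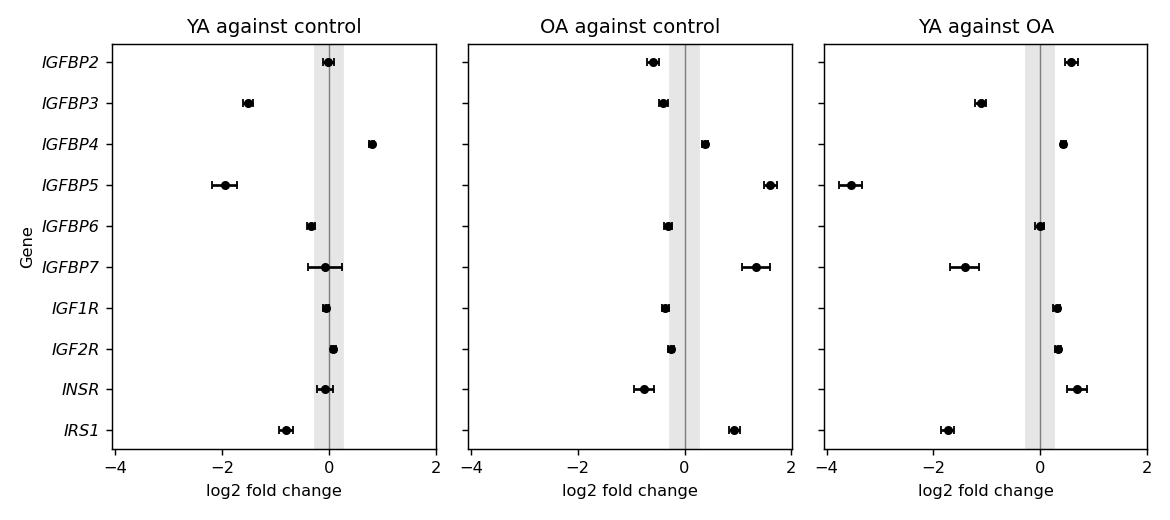
Log2 fold change (x axis) of each gene (y axis), with 1 panel each for YA over control, OA over control and YA over OA; bars are 95% counting intervals and the grey band marks changes under 1.2-fold. IGFBP5 lies at -1.94, 1.60 and -3.54 in the 3 panels, while the receptors lie inside the band in YA against control.

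All 10 genes passed the filter of a mean normalised count of 20, as did 14413 genes in all. After YA, 1 of the 10 lay 1.2-fold or more above control, where 17.4% of those genes did, and 4 lay as far below, where 16.4% did. After OA 4 lay above (21.1% of all genes) and 5 below (21.5%). Set against OA, 5 were higher after YA (23%) and 4 lower (21.5%). These 10 genes are well counted. Among the 11162 genes with a mean of 100 or more, the share past 1.2-fold either way was 25.6%, 35.7% and 37% in those comparisons. Of the 10 it was 50%, 90% and 90%. The 10 were chosen with earlier results of these data known. Their shares therefore describe these genes and give no measure of the axis beside all genes. With the counting interval wholly beyond 1.2-fold, 1 gene was above control (6.03% of all genes) and 3 below (4.44%) after YA, 4 were above (9.04%) and 4 below (9.08%) after OA, and 4 were higher (10%) and 4 lower (9.03%) in YA than OA. Past 2-fold, 0 were above (2.15%) and 2 below control (0.971%) after YA, 2 above (2.86%) and 0 below (3.71%) after OA, and 0 higher (4.43%) and 4 lower (3.04%) in YA than OA. The median log2 fold change of the 10 was -0.07 for YA, -0.28 for OA and 0.15 for YA over OA, where the medians of all genes past the filter were -0.02, 0.01 and -0.01.

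Levels of different genes were compared on the TPM scale, with all annotated exons of a gene taken as its length. The transcripts in use were not determined, so orders, ties and shares of different genes depend on that length. The counting intervals do not cover an error in it. IGFBP4 and IGFBP6 led the binding proteins in each library, at 498 and 455 TPM for control, 859 and 357 for YA, and 643 and 363 for OA. IGFBP3 came next in control and OA (149 and 112 TPM), while in YA it stood (51.4) behind IGFBP2 (67.2). IGFBP5 ranked last but 1 in control (22.4), last in YA (5.72) and above IGFBP2 and IGFBP7 in OA (67.4). IGFBP2 and IGFBP7 had the same level in OA within counting error (45.2 and 45.04), and no other neighbours in these orders had overlapping counting intervals. The 6 together amounted to 1211, 1357 and 1276 TPM for control, YA and OA. IGFBP4 took 41.2% of it for control, 63.3% for YA and 50.4% for OA, while IGFBP3 took 12.3%, 3.79% and 8.77% and IGFBP5 took 1.85%, 0.422% and 5.28%.

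**Figure D3:**
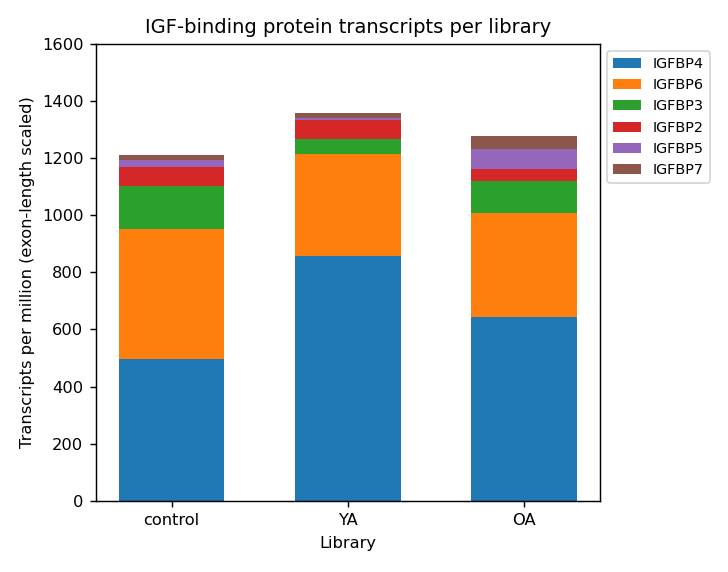
Stacked bars of the TPM of the 6 IGFBP genes (y axis) in the control, YA and OA libraries (x axis), with no error drawn. The bars reach 1211, 1357 and 1276 TPM, and IGFBP4 makes up the largest part of each.

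Among receptors, IGF1R and IGF2R were nearly level, at 70.03 and 66.3 TPM for control, 66.6 and 69.3 for YA, and 54.04 and 55.3 for OA, with overlapping counting intervals in YA and OA. INSR was lowest in every library, at 12.6, 11.8 and 7.38 TPM in the same order. IRS1, at 25.6 and 14.4 TPM in control and YA, was nearest to the IGF receptors in OA, at 48.2 TPM.

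The ligands were hardly detected in A375. INS had no count in any library, which allows up to 3 counts in each, IGF1 had 1 count in control and 0 in the others, and IGF2 had 1, 3 and 3 in control, YA and OA. IGFBP1 had 3, 5 and 5 counts and IGFALS, the serum partner of IGFBP3, had 1, 6 and 7. No fold is given for genes at this level.

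The wider axis was described with a list of 98 genes, of which 96 were in the table and 76 passed the filter. This list too was chosen with earlier results of these data known. Without the 10 genes above, 66 remained. After YA, 12 of these lay 1.2-fold or more above control and 18 as far below (45.5% past 1.2-fold, beside 33.8% of all genes). After OA the numbers were 15 and 22 (56.1%, beside 42.6%), and for YA over OA they were 17 and 13 (45.5%, beside 44.5%). Most of the 66 genes had a mean of 100 or more, where the shares of all genes were 25.6%, 35.7% and 37% in turn. The median log2 fold changes of the 66 were -0.10, -0.04 and -0.03.

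Proteases and their inhibitors included 10 genes past the filter, of which 3 were higher and 4 lower in YA and 5 higher and 2 lower in OA. That is 70% past 1.2-fold in each, where 33.8% and 42.6% of all genes were. Most genes of this and the following groups had a mean of 100 or more, where the shares were 25.6% and 35.7%. Both pairs of shares apply to the groups that follow. PAPPA, the protease of IGFBP4, had 49, 100 and 146 counts for control, YA and OA, with folds of 2.02 (1.44 to 2.94) and 3.50 (2.55 to 5.01). Both secretome libraries were above control for PAPPA as for IGFBP4, although their order differed. PAPPA2, a related protease, had only 5, 7 and 18 counts. STC1, an inhibitor of these proteases, had 338, 200 and 457 counts, with folds of 0.595 after YA (0.496 to 0.709) and 1.61 after OA (1.40 to 1.86), whereas STC2, a second inhibitor, had folds of 1.25 (1.08 to 1.46) and 1.02, the latter with an interval that held 1. HTRA1, a serine protease that can cleave IGFBP5, had 785, 574 and 281 counts, at 0.734 after YA (0.657 to 0.818) and 0.427 after OA (0.371 to 0.489). HTRA3 had 39, 19 and 41 counts, at 0.502 in YA (0.267 to 0.866). ADAM12 was at 0.601 after YA (0.484 to 0.740) and 0.644 after OA (0.515 to 0.799).

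Of 18 receptor substrates and adaptors, 1 was higher and 6 lower in YA, and 2 were higher and 8 lower in OA, IRS1 included (38.9% and 55.6% past 1.2-fold). GAB2, a docking protein upstream of PI3K and SHP2, was at 0.751 after YA (0.687 to 0.821) and 0.660 after OA (0.598 to 0.728). SHC2 had 48, 37 and 12 counts, at 0.313 in OA (0.144 to 0.569). Of 14 negative regulators at the receptors, 2 were higher and 2 lower in YA, and 2 were higher and 3 lower in OA. These shares, 28.6% and 35.7%, are below the 33.8% and 42.6% of all genes. All 14 had a mean of at least 100, however, and among all genes at that level the shares were 25.6% and 35.7%. GRB10, which binds both receptors and dampens their signal, had 236, 538 and 155 counts, with folds of 2.28 (1.96 to 2.68) and 0.783 (0.635 to 0.962). TRIB3, a pseudokinase that can bind AKT, had 1225, 3258 and 992 counts, with a fold of 2.67 and an upper bound of 2.85 in YA, and a fold in OA of 0.965 (0.886 to 1.05). SOCS2 was at 0.636 after YA (0.545 to 0.739) and 0.621 after OA (0.526 to 0.728).

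The 3 IGF2BP genes, which encode proteins that bind IGF2 mRNA, and HMGA2, a DNA-binding regulator of IGF2BP2, stayed within 1.2-fold of control after YA. After OA, HMGA2 was 1.81-fold higher (1.75 to 1.89) and IGF2BP3 was at 0.774 (0.736 to 0.813). Of 14 partner receptors and matrix ligands of the IGFBPs, 4 were higher and 5 lower in YA, and 3 were higher and 6 lower in OA (64.3% in each). ITGA5, a subunit of the fibronectin receptor, was 1.42-fold higher after YA (1.36 to 1.49) and 2.11-fold after OA (2.03 to 2.20). FN1, fibronectin, had 3553, 5167 and 1620 counts, at 1.46-fold after YA (1.40 to 1.52) and 0.543 after OA (0.512 to 0.576). TGFBR3, the betaglycan co-receptor, was at 0.573 after YA (0.423 to 0.762) and 1.45-fold after OA (1.15 to 1.84). Of 8 CCN and other genes whose proteins carry an IGFBP-like domain, HTRA1 included, 2 were higher and 3 lower in YA, and 3 were higher and 3 lower in OA (62.5% and 75%). ESM1, the secreted proteoglycan endocan, had 635, 180 and 1800 counts, with folds of 0.286 (0.240 to 0.336) and 3.37 (3.08 to 3.70). WISP3 had 57, 45 and 22 counts, at 0.470 in OA (0.268 to 0.764).

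**Figure D4:**
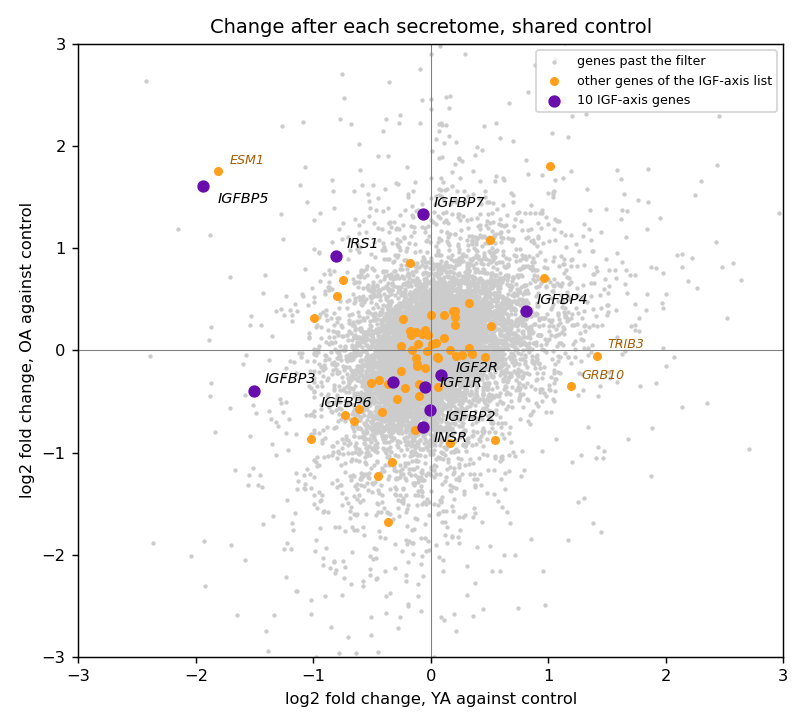
Log2 fold change in YA (x axis) against that in OA (y axis), both against the same control library, for all genes past the filter (grey), the other genes of the IGF-axis list (orange) and the 10 genes (purple). IGFBP5 and ESM1 lie together at upper left, IRS1 lies in the same quadrant, and 79 genes, IRS4 among them, fall outside the axes.

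For each of the 4 genes past 2-fold in any comparison, the 3 nearest genes with a mean of at least 100 were sought by distance in the plane of log2 fold change in YA and OA, over 3 libraries. ESM1 was nearest to IGFBP5, at a distance of 0.20, and the next 2, TMEM158 and SERPINB7, were already 0.89 and 0.92 away. FLT1 was nearest to IGFBP3 (0.09), with 417, 138 and 258 counts for control, YA and OA, followed by TMEM200A (0.22) and SHISA2 (0.33). RELB, an NF-kB subunit, was nearest to IGFBP7 (0.03), with 296, 277 and 618 counts, followed by ATP6V0A4 (0.06) and CD55 (0.09). Counting error was not carried into these distances. It exceeds them for IGFBP7, whose interval in YA against control was 0.768 to 1.18, so that order is not resolved. Shared regulation was not tested. SLC14A1 was nearest to IRS1 (0.04), with 721, 419 and 1126 counts, followed by SH3GL2 (0.15) and ITGA1 (0.15).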

How the data were processed

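Raw counts per gene for 3 A375 libraries were deposited by the authors, as whole numbers for 58037 Ensembl identifiers. The submitters' processing notes name hg38, STAR 2.5.1b, featureCounts and R 3.6.1. The annotation release, use of strand and treatment of multimapping reads were not given in the sources used here. Counts of overlapping genes are therefore uncertain.

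Size factors came from the median of ratios in DESeq2 1.42.0 under R 4.3.3 (control 1.06, YA 1.06, OA 0.891). Fold changes were taken as log2((a + 1)/(b + 1)) of normalised counts, where the mean over libraries reached 20 (14413 genes), with 95% Clopper-Pearson intervals of the ratio of counts. The threshold of 1.2 follows the study, read as a linear fold. Counting error alone is covered by these intervals and by the floor of 3 counts. With 1 library per group, neither edgeR nor DESeq2 could estimate a spread, and no p-value was computed. TPM used the exon-union length of GENCODE 29 on GRCh38, matched for 57433 identifiers, and promoters came from RefSeq on GRCh38.p14. Scaling by edgeR 4.0.16 TMM, total counts or upper quartile, a pseudocount of 5, filters and thresholds were varied.

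The 10 genes and all lists were chosen with earlier results of these data known. All 10 genes were named, as were the ligands, IGFBP1, IGFALS, IRS2, PAPPA, PAPPA2, STC1 and STC2. Up to 3 further genes per group with the largest change were added, at least 1.2-fold and with a mean of at least 20, as were the nearest genes in the plane of changes. Intervals were computed with scipy 1.17.1 in Python 3.11.15, tables with pandas 2.3.3 and numpy 2.4.6, and plots with matplotlib 3.10.9.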

Additional observations from a re-analysis of the deposited data

How the results depend on the processing

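The folds of the 10 genes stayed inside their counting intervals in all 120 recalculations, and none past 1.2-fold changed direction, under TMM, total-count or upper-quartile scaling or a pseudocount of 5. The scalings shifted log2 fold changes by -0.01 to 0.01. No paired analysis was possible because each group has 1 library. Without replicates, depth sets only the counting error. As the ratio of the interval bounds, it was widest among the 10 for IGFBP7 in every comparison. IGFBP5 came next, except in OA against control, where INSR did. Numbers of genes past the threshold moved by over 1.5 times only where the threshold or filter was changed, which alters the genes counted by construction. At 2-fold, 0 of the 10 genes lay above and 2 below control after YA (from 1 and 4), 2 above and 0 below after OA (from 4 and 5), and 0 were higher after YA than after OA (from 5). On the IGF-axis list, 10 genes included, the 2-fold numbers higher and lower were 3 and 5 (from 13 and 22), 5 and 4 (from 19 and 27), and 6 and 9 (from 22 and 17), in that order of comparisons. With the interval wholly beyond 1.2-fold, 12 of the list lay above control after OA and 14 were higher after YA than after OA, and with no filter 21 lay above control after YA. Over all genes the main numbers higher and lower were 2501 and 2370, 3048 and 3092, and 3315 and 3104. They became 310 and 140, 412 and 535, and 639 and 438 at 2-fold, 869 and 640, 1303 and 1308, and 1444 and 1301 with the interval beyond 1.2-fold, and 9661 and 9306, 8340 and 10895, and 10917 and 8049 with no filter. With a minimum mean of 100, 1404 lay above and 1451 below control after YA, 1947 lay below after OA, and 1991 were higher after YA than after OA.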

Other observations

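IGFBP2 and IGFBP5 lie end to end on chromosome 2 in GRCh38, with 7.67 kb between them. IGFBP2 had 1689, 1676 and 944 counts for control, YA and OA, while IGFBP5 had 745, 193 and 1904, so that YA was level with control for IGFBP2 and OA differed in opposite directions. Within 250 kb of the pair, 2 more genes passed the filter, and they were chosen after values had been seen. SMARCAL1, a DNA-annealing helicase, had 383, 420 and 441 counts, with folds of 1.10 in YA (0.955 to 1.27) and 1.37 in OA (1.19 to 1.58). RPL37A, a ribosomal protein gene, had 12704, 11000 and 10321 counts, with folds of 0.868 in YA (0.846 to 0.891) and 0.968 in OA (0.943 to 0.993). Neither neighbour came near the fold of IGFBP5 in either comparison. IGFBP3 similarly lies 18.6 kb from IGFBP1 on chromosome 7, and IGFBP1 had at most 5 counts in any library.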
